A study of Mus musculus with 4 samples.

Results

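The 9 genes described here encode purinergic receptors of the mouse, the P2X ion channels P2rx1, P2rx4, P2rx5 and P2rx7 and the P2Y G protein-coupled receptors P2ry2, P2ry6, P2ry12, P2ry13 and P2ry14. They were taken by symbol from the 23259 gene symbols that carried a value, and all 9 were found. The values come from RNA sequencing of bone marrow-derived macrophages, cells grown from the marrow of C57BL/6 mice aged 7 weeks. They had been stimulated for 24 h with IL-4, a cytokine of alternative macrophage activation. There were 2 libraries labelled Sema6D-/-, a genotype that lacks the membrane semaphorin Sema6D, and 2 labelled wild type. Every library received IL-4, so no unstimulated level is known. Whether the libraries of a genotype stem from different mice or cultures is not stated, so the p-values cover the spread between libraries, and that spread may be technical.

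The data are FPKM, fragment numbers scaled to transcript length and to library size, which allow levels of different genes to be set side by side. The depth estimated from the steps between low values was 8200000 to 9200000 fragments a library. The macrophage gene Csf1r was at 511 and 519 FPKM in the Sema6D-/- libraries, against 545 and 561 FPKM in the wild type libraries. Sema6d itself was at 0.106 and 0.315 FPKM in the libraries labelled Sema6D-/- and 0.166 and 0.389 FPKM in the wild type libraries, so its level does not separate the labels and does not check them. The sample titles begin with W under the label Sema6D-/- and with K under the label wild type. Directions follow the genotype labels, and every sign would turn if these had been exchanged.

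Purinergic receptors sense nucleotides outside the cell. P2X receptors are trimeric cation channels that ATP opens, and they let calcium and sodium in. P2Y receptors bind ATP, ADP, UTP, UDP or UDP-glucose and act through G proteins, some of which release calcium from stores by way of phospholipase C and some of which lower cyclic AMP. In macrophages these receptors are known for guiding cells towards damaged or dying neighbours, for uptake of debris and, through P2X7, for the release of IL-1 family cytokines.

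Of the 9 receptors, P2rx5 alone passed the test, and it was lower in the libraries labelled Sema6D-/-. The 2 most abundant receptors, P2rx4 and P2ry6, together made up 87.2% to 87.7% of the summed FPKM of the 9 in every library. The summed level was 386 and 385 FPKM in the Sema6D-/- libraries and 411 and 412 FPKM in the wild type libraries. Over the 4 libraries the order of the levels was P2rx4 (mean 199 FPKM), P2ry6 (149.7), P2rx7 (22.1), P2ry14 (16.1 to 17.9 over the libraries), P2ry2 (8.77), P2rx5 (1.82), P2ry13 (0.232), P2ry12 (0.146) and P2rx1 (0.0592). The ranges over the 4 libraries stood apart for each neighbouring pair in this order down to P2rx5 and P2ry13. P2ry13, P2ry12 and P2rx1 overlapped, and their order is not resolved. P2rx4 exceeded 98.5% of all symbols in mean FPKM, and P2ry6 exceeded 97.9%.

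**Figure D1:**
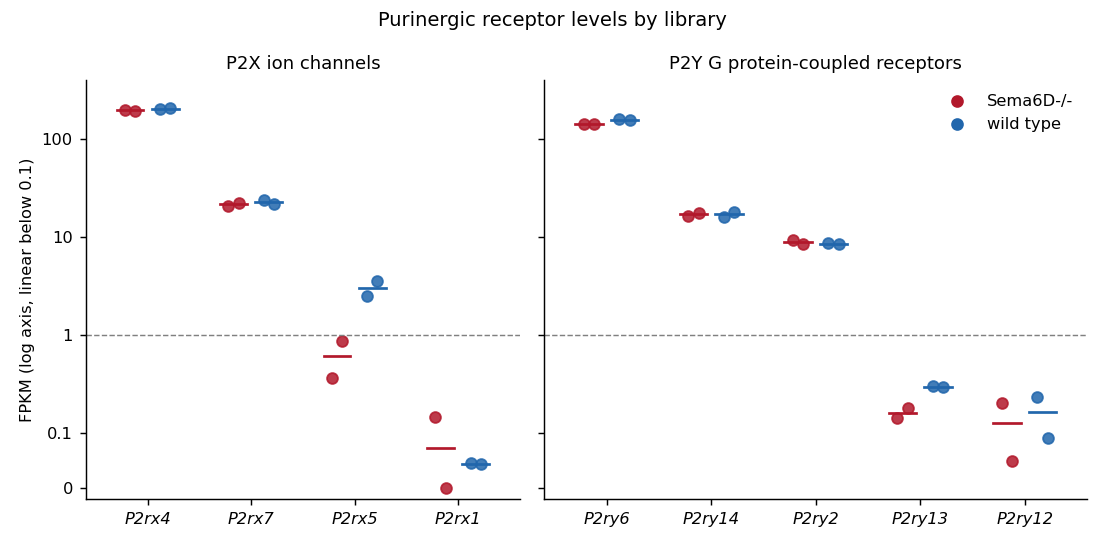
FPKM of each receptor in the 2 libraries labelled Sema6D-/- (red) and the 2 labelled wild type (blue), on a log axis that is linear below 0.1, with P2X channels on the left and P2Y receptors on the right. Points are libraries, short lines are means, and the dashed line marks the filter at 1 FPKM, and P2rx5 is the receptor whose groups stand farthest apart, at 0.619 FPKM in Sema6D-/- and 3.03 FPKM in wild type.

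The 9 genes fall into 4 loci of the mouse genome. P2rx7 and P2rx4 lie 15.2 kb apart on chromosome 5, P2ry6 and P2ry2 21.1 kb apart on chromosome 7, and P2rx1 and P2rx5 140.2 kb apart on chromosome 11 (RefSeq genes of GRCm38, the assembly that mm10 names). P2ry14, P2ry13 and P2ry12 form a cluster on chromosome 3. RefSeq promoter windows, 250 bases before to 50 after a listed start, were found for 7 of the 9, and not for P2rx5 and P2ry6. For P2rx4 and P2rx1 the listed start lies inside the gene span rather than at its first base. P2ry14 has 4 starts listed, and P2rx7 and P2ry2 have 2 each, but a single window of each gene was read. The windows of the chromosome 3 cluster and of the P2rx7 and P2rx4 pair are shown because these neighbours differ widely in level and every member has a window. They are written 5′ to 3′ on the strand of the gene (build GRCm38.p6), with matches to the searched motifs in capitals.
P2ry14 (chr3:59153443-59153742, minus strand): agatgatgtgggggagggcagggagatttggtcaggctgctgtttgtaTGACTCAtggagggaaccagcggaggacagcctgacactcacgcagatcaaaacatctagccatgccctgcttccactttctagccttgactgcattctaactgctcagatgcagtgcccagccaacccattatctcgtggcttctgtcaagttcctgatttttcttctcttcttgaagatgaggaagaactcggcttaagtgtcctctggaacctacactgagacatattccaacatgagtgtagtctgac
P2ry13 (chr3:59210833-59211132, minus strand): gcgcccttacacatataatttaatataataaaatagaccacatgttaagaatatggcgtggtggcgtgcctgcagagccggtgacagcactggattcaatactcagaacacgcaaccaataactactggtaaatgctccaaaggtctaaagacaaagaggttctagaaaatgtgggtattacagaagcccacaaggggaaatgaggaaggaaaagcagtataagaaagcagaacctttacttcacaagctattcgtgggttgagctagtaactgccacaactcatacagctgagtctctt
P2ry12 (chr3:59262936-59263235, minus strand): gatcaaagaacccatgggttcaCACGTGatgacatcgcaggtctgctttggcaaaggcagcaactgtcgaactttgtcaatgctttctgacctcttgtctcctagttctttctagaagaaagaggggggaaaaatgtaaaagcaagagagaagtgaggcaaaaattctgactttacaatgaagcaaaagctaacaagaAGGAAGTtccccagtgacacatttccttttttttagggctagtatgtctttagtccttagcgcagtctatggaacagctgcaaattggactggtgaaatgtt
P2rx7 (chr5:122643677-122643976, plus strand): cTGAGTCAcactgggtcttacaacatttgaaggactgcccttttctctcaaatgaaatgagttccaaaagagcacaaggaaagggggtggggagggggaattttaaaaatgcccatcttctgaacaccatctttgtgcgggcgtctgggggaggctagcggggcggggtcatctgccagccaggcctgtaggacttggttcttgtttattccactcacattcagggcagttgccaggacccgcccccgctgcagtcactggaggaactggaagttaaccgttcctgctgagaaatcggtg
P2rx4 (chr5:122707294-122707593, plus strand): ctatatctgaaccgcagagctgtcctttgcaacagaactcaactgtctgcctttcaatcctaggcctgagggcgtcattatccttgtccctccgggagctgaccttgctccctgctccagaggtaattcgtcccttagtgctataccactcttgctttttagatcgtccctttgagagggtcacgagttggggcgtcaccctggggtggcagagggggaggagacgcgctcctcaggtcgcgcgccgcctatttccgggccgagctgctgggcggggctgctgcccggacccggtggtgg

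The letters searched, on both strands, were a pair of GAAA with 2 free bases between for the interferon-stimulated response element, TTC and GAA with 4 free bases between for STAT6, the factor that IL-4 activates, TTCNNNGAA for the gamma-activated site, TGANTCA for AP-1, AGGAAGT for the myeloid factor PU.1 and CACGTG for the CLEAR E-box of lysosomal genes. Some of these patterns can overlap one another. An AP-1 match stood in the windows of P2ry14 and P2rx7, a PU.1 match in that of P2ry12, and a CACGTG match in those of P2ry12 and P2ry2. Among 27025 mouse promoter windows of the same length, 7.92% held the AP-1 letters, 9.52% the PU.1 letters and 7.24% CACGTG. The windows of P2ry13, P2rx4 and P2rx1 held none of the searched letters, and no window of the 7 held those of the interferon element, STAT6 or the gamma-activated site, which 3.49%, 7% and 8.42% of all windows held. A match in letters is a description of the sequence and does not show that a factor binds.

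Differences between the labels were tested with limma on log2(FPKM + 1) over the 10115 genes that averaged 1 FPKM or more, with Benjamini-Hochberg adjusted p-values. Of the 4 P2X channels 3 passed this filter, and of the 5 P2Y receptors 3 passed it. Among the channels 1 of 3 was called, lower in Sema6D-/-, and among the P2Y receptors 0 of 3. In the whole fit 9.72% of genes were called, 4.91% lower and 4.8% higher, so 1 call among 6 receptors is near the background share and is no result about the group. The median difference of the 6 was -0.06 on the log2(FPKM + 1) scale, against 0.0029 for all genes tested.

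P2rx5 encodes an ATP-gated cation channel. It lies on chromosome 11 from 73155389 to 73172687. It was at 0.370 and 0.867 FPKM in the Sema6D-/- libraries, against 2.51 and 3.54 FPKM in the wild type libraries. Both Sema6D-/- libraries were below both wild type libraries, as whole groups were for 27.4% of all genes tested. Its values stood in whole-number steps of 7 and 17 fragments in Sema6D-/- and 52 and 75 in wild type, so the Sema6D-/- level rests on few fragments. The difference was -1.32 ± 0.21 (SE, limma adjusted p = 0.0232), with a 95% interval from -1.86 to -0.78, and the means were 0.619 ± 0.3515 FPKM in Sema6D-/- and 3.03 ± 0.729 FPKM in wild type (SD, n = 2 each). Of all tested genes, 1.34% differed by more in absolute size. This scale understates the change of low genes. The call was lost when wild type replicate 2, Sema6D-/- replicate 1 or Sema6D-/- replicate 2 was left out. It was also lost in a fit without the filter (limma adjusted p = 0.286). Under the alternatives on the log2(FPKM + 1) scale in which it was tested, the difference remained between -1.54 and -1.10. Pseudocounts of 0.1 and 5 change the scale, and with them it was -2.19 and -0.51.

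In bulk RNA, fewer cells of a type and less RNA per cell cannot be told apart. Calls of marker genes are given by list, where 4.8% of all genes tested were higher and 4.91% lower. Lists of 1 to 3 tested markers are too short for such counts to be a result. In the same libraries 6 of 9 tested neutrophil markers were higher (S100a8, S100a9, Ngp, Ltf, Lcn2 and Mpo) and Csf3r was lower, and the list summed to 636 to 776 FPKM in Sema6D-/- and 227 to 240.3 FPKM in wild type. Of 9 macrophage markers Emr1 was higher, while Itgam, Cd14 and Lyz2 were lower, and the list summed to 5362 to 5388 FPKM in Sema6D-/- and 5688 to 5976 FPKM in wild type. P2rx1 and P2ry12 are known from platelets, and of 2 tested platelet markers Treml1 was lower and Pf4 did not pass. The platelet list summed to 36.0 to 46.4 FPKM in Sema6D-/- and 49.4 to 59.3 FPKM in wild type, mostly Pf4. Its members under the filter did not all lie the same way. Itga2b was at 0.443 and 0.427 FPKM in Sema6D-/- and 0.0311 and 0.0913 FPKM in wild type (limma adjusted p = 0.126 without the filter), and Ppbp at 1.39 and 0.974 FPKM in Sema6D-/- and 0.461 and 0.225 FPKM in wild type (0.329). Of the other lists, Itgax was lower among 2 tested dendritic cell markers (list sums of 306 to 322 FPKM in Sema6D-/- and 404 to 409.5 FPKM in wild type) and Olfml3 among 2 tested microglia markers (list sums of 134.7 FPKM in both Sema6D-/- libraries and 140.7 to 143 FPKM in wild type). Mcpt8 was higher as the 1 tested marker of mast cells and basophils (list sums of 3.21 to 3.97 FPKM in Sema6D-/- and 0.551 to 0.972 FPKM in wild type), and among 3 tested eosinophil markers Prg2 and Ccr3 were higher and Siglec5 lower (list sums of 18.4 to 23.0 FPKM in Sema6D-/- and 15.4 to 17.8 FPKM in wild type). None of 3 tested fibroblast markers passed (list sums of 5.32 to 8.04 FPKM in Sema6D-/- and 5.87 to 11.1 FPKM in wild type). No marker of B cells, of T and NK cells or of erythroid cells reached the filter, and each of these lists summed to at most 1.41 FPKM in any library, with Pax5 and Ncr1 listed at 0 in every library. The part of other cells in the P2rx5 difference was not tested.

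P2rx4, an ATP-gated channel known to reside largely in lysosomes of macrophages, was at 197 and 193 FPKM in the Sema6D-/- libraries, against 200.4 and 204 FPKM in the wild type libraries. The groups did not overlap, which also held for 56.2% of all genes tested, and the difference of -0.05 did not pass (limma adjusted p = 0.497; 95% interval -0.16 to 0.05). P2rx7, the low-affinity ATP channel upstream of the NLRP3 inflammasome, was at 20.7 and 22.3 FPKM in Sema6D-/- and 23.7 and 21.7 FPKM in wild type. These groups overlapped (difference -0.07, limma adjusted p = 0.587; 95% interval -0.26 to 0.11). P2rx4 stood 9.50 and 8.66 times above P2rx7 in Sema6D-/- and 8.45 and 9.41 times in wild type, so the proportion between the neighbouring channels overlapped between labels. P2rx1, a channel known from platelets and smooth muscle, was at 0.148 FPKM in Sema6D-/- replicate 1, was listed at 0 in Sema6D-/- replicate 2 and stood at 0.0450 and 0.0440 FPKM in wild type. An exact 0 in such files can be a failed estimate. In steps these are 3 and 0 fragments against 1 and 1, and no difference was detectable at this depth.

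P2ry6, the receptor for UDP, which promotes phagocytosis in microglia, was the most abundant P2Y receptor. It was at 142 and 143 FPKM in the Sema6D-/- libraries, against 159 and 156 FPKM in the wild type libraries. Both Sema6D-/- values were below both wild type values, as for 27.4% of all genes tested. The difference of -0.14 ± 0.04 (SE) had a 95% interval from -0.25 to -0.04 and a raw p of 0.0157 in limma, but did not pass over all genes (limma adjusted p = 0.102). Left-out libraries and other settings kept it between -0.17 and -0.13.

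P2ry14, the receptor for UDP-glucose, was at 16.5 and 17.5 FPKM in Sema6D-/- and 16.1 and 17.9 FPKM in wild type, where the Sema6D-/- values lie inside the range of the wild type ones. Its difference was -0.0004 (limma adjusted p = 0.998; 95% interval -0.19 to 0.19). P2ry2, the ATP and UTP receptor through which phagocytes find dying cells, was at 9.41 and 8.51 FPKM in Sema6D-/- and 8.72 and 8.45 FPKM in wild type. The groups overlapped (difference 0.05, limma adjusted p = 0.728; 95% interval -0.15 to 0.26). P2ry6 stood 15.1 and 16.8 times above its neighbour P2ry2 in Sema6D-/- and 18.2 and 18.4 times in wild type. These ratios did not overlap, nor did the levels of 56.2% of all genes tested, and neither receptor passed the test. With 2 libraries against 2, an exact permutation test of such a single value cannot go below 0.333 (two-sided), so this ratio was not tested further.

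The ADP receptors P2ry13 and P2ry12, the second known from platelets and microglia, were under the filter and were read from a fit of all 23259 symbols. P2ry13 was at 0.142 and 0.183 FPKM in Sema6D-/- and 0.304 and 0.297 FPKM in wild type, or 3 and 4 fragments against 7 and 7. The groups did not overlap, which also held for 56.2% of the genes above the filter. The difference of -0.16 did not pass (limma adjusted p = 0.205). P2ry12 was at 0.207 and 0.0498 FPKM in Sema6D-/- and 0.236 and 0.0923 FPKM in wild type, or 4 and 1 fragments against 5 and 2. These groups overlapped (difference -0.05, limma adjusted p = 1). In that fit 0.92% of symbols were called.

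**Figure D2:**
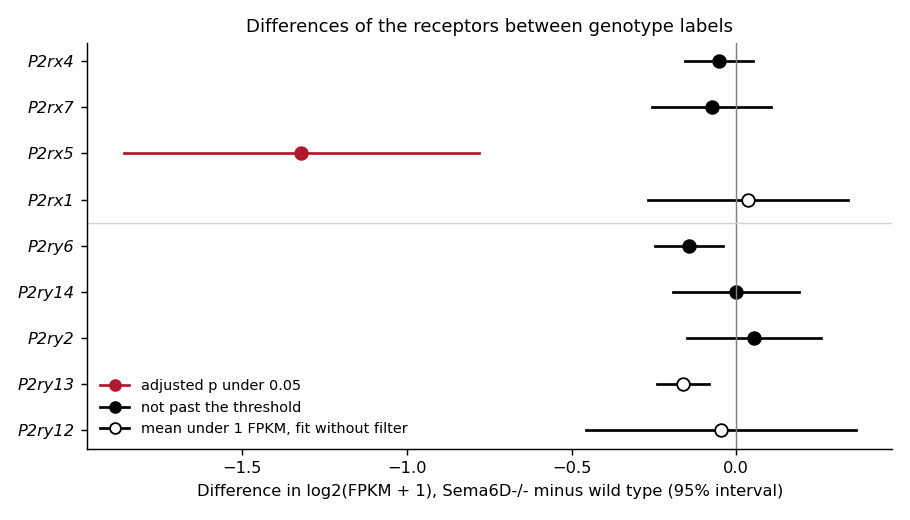
Difference of each receptor in log2(FPKM + 1), Sema6D-/- minus wild type, with its 95% interval, P2X channels above and P2Y receptors below. P2rx5 (red, -1.32) is past the threshold, filled black points are tested receptors that did not pass, and open points are the 3 receptors with a mean under 1 FPKM.

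Neighbouring genes were read out around the 4 loci, within 200 kb of a receptor. Of 33 such symbols 16 were tested, and 2 were lower in Sema6D-/-, where 4.91% of all genes tested were lower. With so few genes this count is no result about the loci. The 2 genes, Anapc5 and Rnf34, lie near P2rx4 and P2rx7. Anapc5, a subunit of the anaphase-promoting complex, was at 45.9 and 46.6 FPKM in Sema6D-/- and 60.0 and 58.9 FPKM in wild type (difference -0.36 ± 0.05 (SE), limma adjusted p = 0.0125). Rnf34, a ubiquitin ligase gene, was at 19.97 and 21.8 FPKM in Sema6D-/- and 28.9 and 27.0 FPKM in wild type (-0.40 ± 0.07 (SE), limma adjusted p = 0.0278). Anapc5 lost its call without either Sema6D-/- library (highest adjusted p = 0.107) and Rnf34 when any 1 library was left out (highest adjusted p = 0.173). P2rx4 and P2rx7 themselves did not pass. Kdm2b, a histone demethylase gene of the same locus, was at 8.51 and 8.01 FPKM in Sema6D-/- and 9.02 and 8.56 FPKM in wild type (limma adjusted p = 0.576).

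Around P2rx1 and P2rx5 none of the 8 tested neighbours was called. Tmem93 (now Emc6), 2816 bases from P2rx5, was at 33.5 and 34.1 FPKM in Sema6D-/- and 32.2 and 32.7 FPKM in wild type (limma adjusted p = 0.532). Atp2a3, a calcium pump gene beside P2rx1, was at 3.19 and 2.52 FPKM in Sema6D-/- and 4.55 and 3.89 FPKM in wild type (limma adjusted p = 0.116). Shpk, a sedoheptulose kinase gene, was at 1.54 and 1.49 FPKM in Sema6D-/- and 2.15 and 2.02 FPKM in wild type (limma adjusted p = 0.202), and Ctns, the lysosomal cystine transporter gene, at 18.3 and 17.6 FPKM in Sema6D-/- and 15.8 and 16.7 FPKM in wild type (limma adjusted p = 0.261). Near P2ry2 and P2ry6, Fchsd2 was at 18.8 and 15.8 FPKM in Sema6D-/- and 13.4 and 14.9 FPKM in wild type (limma adjusted p = 0.179), and Fam168a at 14.1 and 12.7 FPKM in Sema6D-/- and 12.5 and 12.3 FPKM in wild type (limma adjusted p = 0.487). In the chromosome 3 cluster the 5 other symbols were all under the filter. Med12l, whose span holds P2ry12, P2ry13 and P2ry14, was listed at 0 in 3 libraries and at 0.0106 FPKM in Sema6D-/- replicate 2. The span of Camkk2, at 8.30 and 9.20 FPKM in Sema6D-/- and 9.37 and 10.8 FPKM in wild type (limma adjusted p = 0.318), overlaps P2rx4 in RefSeq, and without the strand setting of the counting, reads of overlapping genes cannot be told apart.

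**Figure D3:**
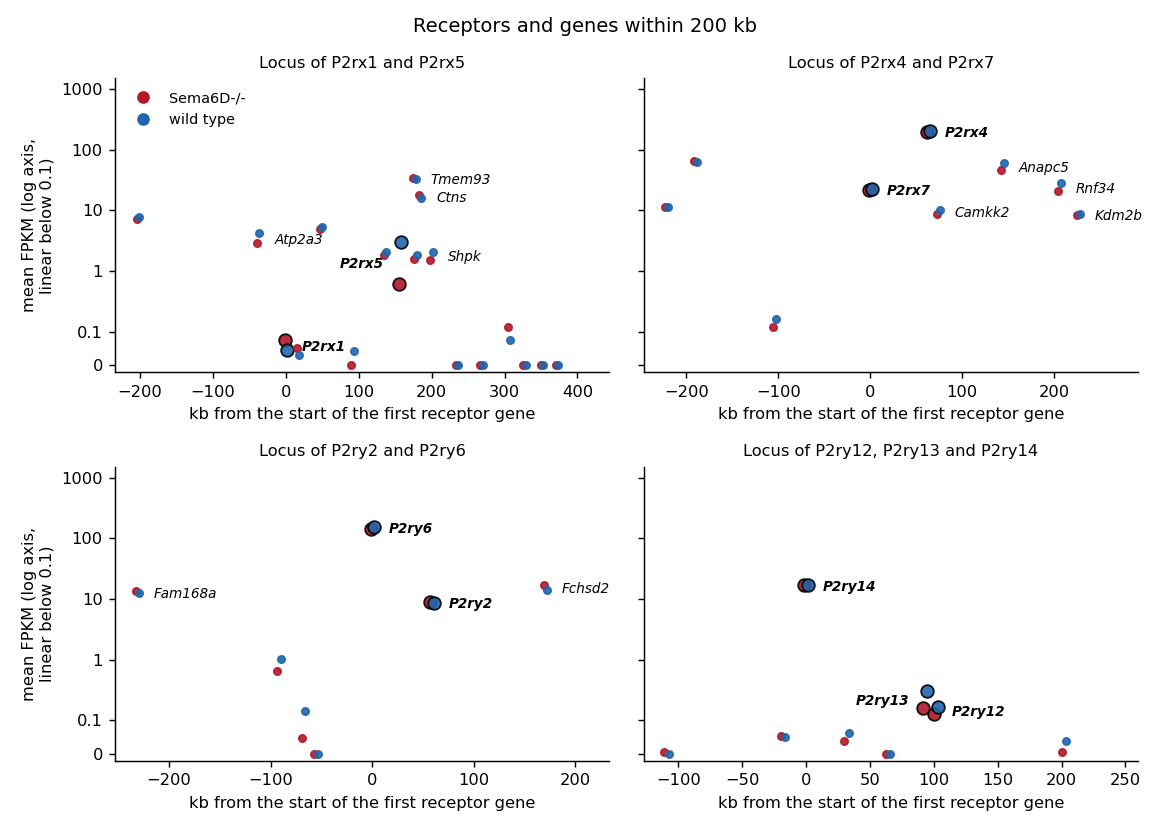
Mean FPKM of the receptors (large, outlined, bold names) and of genes within 200 kb (small) against distance in kb from the start of the first receptor gene of each locus, on a log axis that is linear below 0.1, for Sema6D-/- (red) and wild type (blue). In the cluster of P2ry12, P2ry13 and P2ry14, P2ry14 stands at 16.99 FPKM in Sema6D-/- and 17.01 FPKM in wild type, far above its neighbours, and P2rx5 is the receptor with the widest gap between groups.

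Among 7687 genes averaging 5 FPKM or more, the 3 whose pattern over the 4 libraries was nearest to that of P2rx5 were Ifit3, Ccl22 and Ifit2. The measure was the root mean square distance of log2(FPKM + 1) centred over the 4 libraries, which was 0.046, 0.079 and 0.081. Ifit3, an interferon-stimulated gene, was at 6.58 and 9.49 FPKM in Sema6D-/- and 20.1 and 24.6 FPKM in wild type. Ccl22, a chemokine gene that IL-4 induces, was at 10.1 and 14.2 FPKM in Sema6D-/- and 24.9 and 31.9 FPKM in wild type. Ifit2, also interferon-stimulated, was at 12.6 and 16.0 FPKM in Sema6D-/- and 35.8 and 41.2 FPKM in wild type. In all 3, as in P2rx5, replicate 2 was the higher library of each label. The 3 were picked among 7687 genes for likeness over these same 4 libraries, so the shared pattern follows from the choice. It is no separate result about P2rx5.

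The rest of the nucleotide signalling machinery was read from 7 lists that hold 54 tested genes, of which 4 were higher and 9 lower in Sema6D-/-, against 4.8% higher and 4.91% lower among all genes tested. Of the 5 other P2 receptors P2ry1, an ADP receptor, was the sole one tested, at 11.4 and 13.8 FPKM in Sema6D-/- and 13.3 and 12.6 FPKM in wild type (limma adjusted p = 0.847). P2rx2 and P2ry4 were listed at 0 in every library, and P2rx3 and P2rx6 reached at most 0.0552 and 0.196 FPKM. Of 4 adenosine receptors Adora2b alone was tested and was higher. This low-affinity receptor for adenosine was at 9.08 and 10.51 FPKM in Sema6D-/- and 5.59 and 6.79 FPKM in wild type (difference 0.59 ± 0.12 (SE), limma adjusted p = 0.0401). In steps these are 135 and 162 fragments against 91 and 113. Leaving out any 1 library ended this call (highest adjusted p = 0.214).

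Of 15 genes on the list of enzymes that act on nucleotides and nucleosides 7 were tested, with a median difference of -0.28. Of these 7, 2 were higher and 2 lower, against 4.8% higher and 4.91% lower among all genes tested. With so few genes this count is no result about the list. Entpd1, which encodes CD39 and breaks ATP and ADP down to AMP, was at 33.7 and 30.5 FPKM in Sema6D-/- and 17.9 and 17.03 FPKM in wild type. Its difference of 0.84 ± 0.07 (SE, limma adjusted p = 0.00388) kept its call without each single library (highest adjusted p = 0.0463). Enpp1, which splits ATP into AMP and pyrophosphate, was at 2.41 and 2.46 FPKM in Sema6D-/- and 0.734 and 1.24 FPKM in wild type (0.80 ± 0.17 (SE), limma adjusted p = 0.0427). Acpp, an acid phosphatase that can turn AMP into adenosine, was at 1.11 and 1.64 FPKM in Sema6D-/- and 3.84 and 3.43 FPKM in wild type (-0.98 ± 0.15 (SE), limma adjusted p = 0.0206). Pnp, a purine nucleoside phosphorylase of the cytosol and so not an ecto-enzyme, was at 30.7 and 31.3 FPKM in Sema6D-/- and 40.4 and 37.3 FPKM in wild type (-0.31 ± 0.06 (SE), limma adjusted p = 0.0342). Nt5e, the CD73 gene, was at 0.0978 and 0.126 FPKM in Sema6D-/- and 0.0298 and 0.0583 FPKM in wild type (limma adjusted p = 0.365 without the filter). Enpp1, Acpp and Pnp each lost the call in 3 of the 4 fits that leave out a library (highest adjusted p = 0.189, 0.099 and 0.201).

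None of the 5 tested genes of nucleotide release and none of the 5 of nucleoside transport passed. The release channel gene Panx1 was at 20.3 and 27.1 FPKM in Sema6D-/- and 19.9 and 20.8 FPKM in wild type (limma adjusted p = 0.433). Slc17a9, the vesicular nucleotide transporter gene, was at 2.88 and 2.83 FPKM in Sema6D-/- and 2.38 and 1.68 FPKM in wild type (limma adjusted p = 0.213), Lrrc8a at 5.52 and 5.67 FPKM in Sema6D-/- and 4.80 and 5.005 FPKM in wild type (0.318), and Ank at 34.0 and 35.5 FPKM in Sema6D-/- and 31.4 and 34.3 FPKM in wild type (0.501). None of these separates the labels past the test. The concentrative transporter gene Slc28a2 was at 5.36 and 6.29 FPKM in Sema6D-/- and 7.13 and 8.22 FPKM in wild type (limma adjusted p = 0.130). The adenosine kinase gene Adk, at 14.2 and 13.1 FPKM in Sema6D-/- and 15.5 and 15.7 FPKM in wild type, and the equilibrative transporter genes Slc29a3 and Slc29a1 had limma adjusted p-values of 0.180, 0.228 and 0.300. Of 13 tested effectors of P2X7 and of the inflammasome 1 was lower and 12 did not pass, with a median difference of 0.03. Among all genes tested 4.91% were lower, so 1 call is near the background share and is no result about the list. Gsdmd, whose cleaved product forms pores in the membrane, was at 62.9 and 65.7 FPKM in Sema6D-/- and 80.2 and 80.2 FPKM in wild type (-0.31 ± 0.05 (SE), limma adjusted p = 0.0181), a call lost without any 1 library (highest adjusted p = 0.129). Il18, a cytokine that caspase-1 matures, was at 5.18 and 5.64 FPKM in Sema6D-/- and 2.75 and 4.03 FPKM in wild type (limma adjusted p = 0.0983). The adaptor gene Pycard was at 50.4 and 50.3 FPKM in Sema6D-/- and 63.5 and 55.6 FPKM in wild type (0.122), and Casp1 at 139.9 and 133 FPKM in Sema6D-/- and 121.8 and 125.1 FPKM in wild type (0.141). None of these 3 passed. Their groups did not overlap, as for 56.2% of all genes tested. Nlrp3, the sensor itself, was at 4.59 and 5.12 FPKM in Sema6D-/- and 4.85 and 4.02 FPKM in wild type (limma adjusted p = 0.623). Il1b was at 0.0983 and 0.0948 FPKM in Sema6D-/- and 0.719 and 0.264 FPKM in wild type, or 1 and 1 fragments against 8 and 3. It did not pass in the fit without the filter (limma adjusted p = 0.630).

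The list of G proteins, phospholipases C, IP3 receptors and their regulators held 24 of the 54 tested genes. Of these 24, 6 were lower and 1 higher, against 4.91% lower and 4.8% higher among all genes tested, with a median difference of -0.04. Plcb2, a phospholipase C that G proteins activate, was at 9.69 and 9.69 FPKM in Sema6D-/- and 21.5 and 18.6 FPKM in wild type (-0.97 ± 0.09 (SE), limma adjusted p = 0.00466). The calcium release channel gene Itpr2 was at 2.81 and 3.10 FPKM in Sema6D-/- and 7.32 and 7.76 FPKM in wild type (-1.11 ± 0.09 (SE), limma adjusted p = 0.00415). Itpr3, a second channel of this kind, was at 4.11 and 4.12 FPKM in Sema6D-/- and 13.6 and 9.28 FPKM in wild type (-1.26 ± 0.17 (SE), limma adjusted p = 0.0137). Each of the 3 had no overlap between labels, as for 56.2% of all genes tested, and they were named because they were called. Their calls were lost without Sema6D-/- replicate 1 (adjusted p = 0.0606, 0.0508 and 0.123), and that of Itpr3 also without Sema6D-/- replicate 2 (0.107).

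Smaller differences were found in 4 other members of that list. Gna15, a G protein subunit of blood cells that couples receptors to phospholipase C, was at 25.1 and 22.5 FPKM in Sema6D-/- and 33.2 and 30.2 FPKM in wild type (limma adjusted p = 0.0396). Arrb2, an arrestin that ends receptor signalling, was at 69.7 and 66.3 FPKM in Sema6D-/- and 81.4 and 84.1 FPKM in wild type (limma adjusted p = 0.0295). Rgs1, which switches G proteins off, was at 296 and 336 FPKM in Sema6D-/- and 428 and 403 FPKM in wild type (limma adjusted p = 0.0312). Gng2 was the member that was higher, at 28.7 and 27.7 FPKM in Sema6D-/- and 23.0 and 22.8 FPKM in wild type (limma adjusted p = 0.0321). These 4 lost their calls without any 1 library (highest adjusted p from 0.1499 to 0.201). Gnai2, the most abundant G protein gene of the list, was at 385 and 368 FPKM in Sema6D-/- and 370.2 and 359.6 FPKM in wild type (limma adjusted p = 0.607). As given above, 6 of 9 tested neutrophil markers were higher and Csf3r lower, where 4.8% of all genes tested were higher and 4.91% lower. The part of other cells in these differences was not tested.

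**Figure D4:**
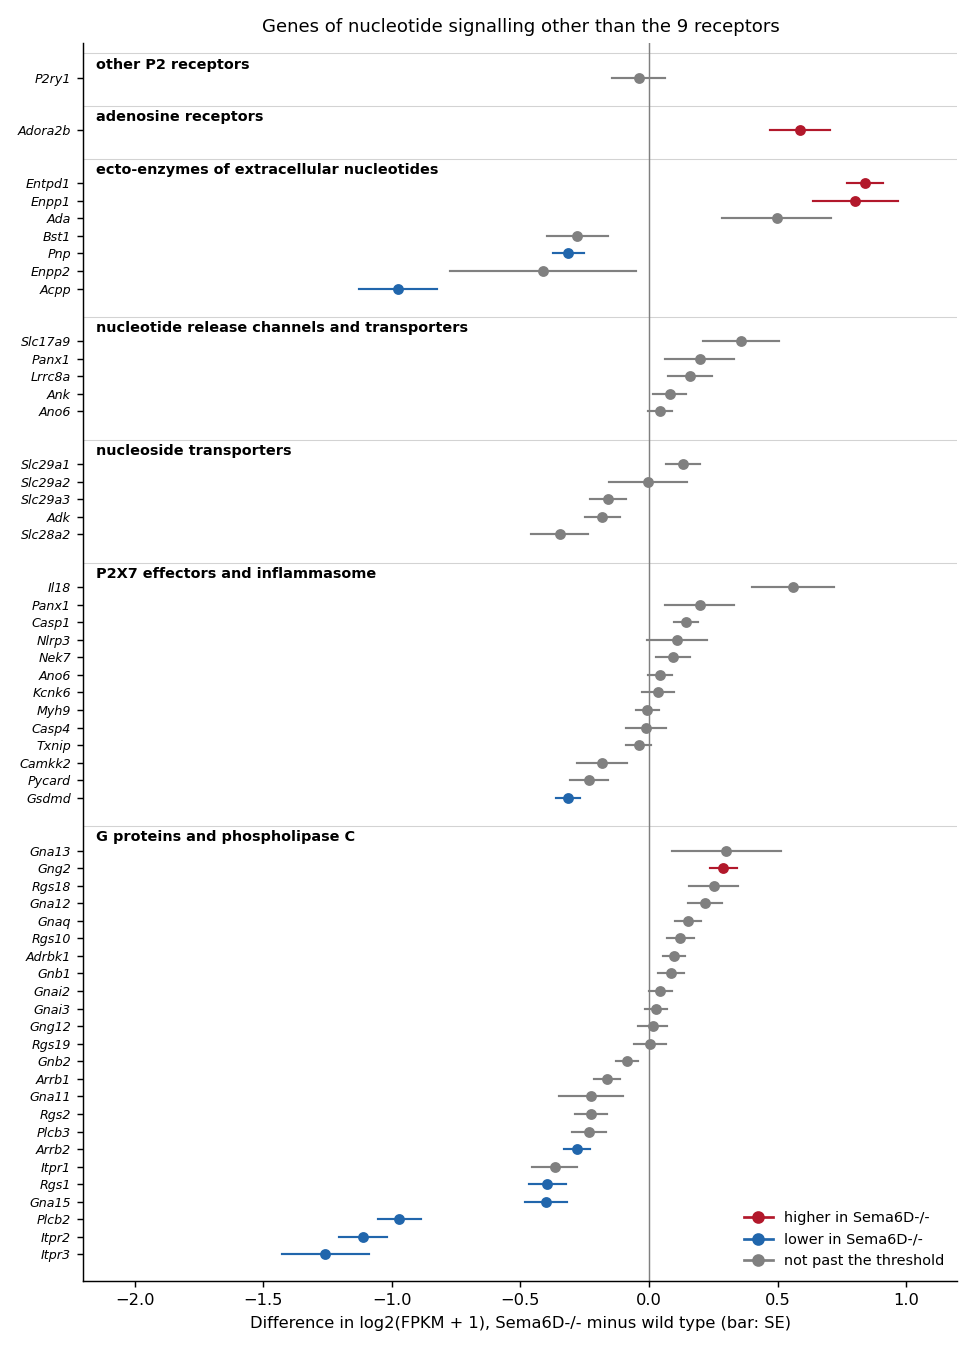
Difference in log2(FPKM + 1), Sema6D-/- minus wild type, with its SE, for the tested genes of 7 lists of nucleotide signalling, 1 gene a row (Panx1 and Ano6 stand on 2 lists). Red genes were higher and blue genes lower past the threshold. Entpd1 at 0.84, Enpp1 at 0.80 and Adora2b at 0.59 stand on the right. Itpr3, Itpr2, Acpp and Plcb2 stand on the left, at -1.26, -1.11, -0.98 and -0.97.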

How the data were processed

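RNA of 4 libraries, 2 labelled Sema6D-/- and 2 labelled wild type, was prepared with an Agilent SureSelect strand-specific kit, per the labels' protocols. The authors deposited FPKM values, 1 per gene symbol and library, normalized between libraries by Cuffnorm 2.2.1; TopHat2 2.0.13, Bowtie2 2.2.3, SAMtools 0.1.19 and mm10 are also named, per the submitters' processing notes. Which annotation and strand setting were used, and how multi-mapping reads were counted, is not given in the sources used here. Of 23284 symbols 25 had no value in any library and were left out.

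Groups follow the genotype labels. log2(FPKM + 1) was compared between labels by limma 3.58.1 (R 4.3.3; lmFit, eBayes with an intensity trend, two-sided) over genes averaging 1 FPKM or more, adjusted by the Benjamini-Hochberg method at a threshold of 0.05; receptors under this filter were read from a fit without it. The test was checked on simulated data with known changes. Levels are FPKM, and differences are Sema6D-/- minus wild type in log2(FPKM + 1). Fragment numbers come from the whole-number steps between libraries of low FPKM values (tolerance 0.03 fragments), kept where estimates from GENCODE M21 transcript lengths gave like numbers; they cover counting only, and Cuffnorm's scaling may shift the depth. RefSeq positions were found for 23014 symbols. The receptors, gene lists and motifs were chosen with earlier results of these data known. Genes named from the lists are those past the threshold or, where fewer than 4 passed, up to 4 by smallest p, and up to 4 neighbours a locus; marker lists name the genes past the threshold, and the 3 genes nearest in pattern are named for a called receptor. Csf1r, Nlrp3, Il1b, Nt5e, Gnai2, P2rx2, P2rx3, P2rx6, P2ry4, Med12l, Itga2b, Ppbp and the markers listed at 0 were named after their values were seen. Alternatives were pseudocounts of 0.1 and 5, no filter or one at 5 FPKM, scaling by median of ratios or by quantiles, eBayes with robust estimation or lacking the trend, a block by title number and leaving out each library.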

Additional observations from a re-analysis of the deposited data

How the results depend on the processing

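P2rx5 was the 1 receptor called, lower in Sema6D-/-; the count was 0 without a filter and 0 with the filter at 5 FPKM, where P2rx5 was not tested, and 0 to 1 with a library left out. The receptors under the filter had 0 calls, with 0 to 1 lower and 0 to 1 higher with a library left out; both calls are P2rx1, which rests on 0 to 3 fragments a library. All genes called numbered 486 higher and 497 lower, against 115 and 99 when unfiltered, 261 and 327 when eBayes lacked the trend, and 72 to 276 and 87 to 290 with a library left out. With the title number as a block, 300 genes were higher and 337 lower, and P2rx5 remained called (limma adjusted p = 0.0162). The related lists then had 2 higher and 6 lower genes, and the neighbours 1 lower. Same-numbered libraries did not deviate together over the genes tested (correlation -0.0183). A value over all these genes cannot show whether some of them share a culture or day, so a pairing by number remains unknown.

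The related lists had 4 higher and 9 lower genes, against 0 and 0 with no filter, 1 and 5 with an eBayes fit that lacks the trend, and 1 to 4 and 0 to 4 with a library left out. The 2 lower neighbours became 0 with no filter, 1 when eBayes lacked the trend and 0 to 1 with a library left out. Signs turned for uncalled differences near 0. With a library left out, P2ry14 ranged from -0.0715 to 0.0707 (0.0039 with quantile normalization), P2ry2 from -0.0105 to 0.1201, P2ry12 from -0.1464 to 0.0543, P2rx1 from -0.0629 to 0.1360, P2ry1 from -0.1691 to 0.0888 and Panx1 from -0.0047 to 0.3980. The cause was not tested. A fit that leaves out a library has 1 sample in a group, which is assumed to vary like the other group. Of 788 refits of 62 named genes, 656 kept direction and side of the threshold. The named genes include many that were not called in the main fit and had no call to lose. This total therefore says little about how steady the calls were.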
